A study of Mus musculus with 12 samples.

Results

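The DNA replication machinery was taken as the genes whose pathway annotation in the deposited count table holds the term DNA replication. This rule found 35 of the 16352 genes of the table, and all 35 passed the filter on low counts, so that they are among the 12404 genes tested. No expression value entered the rule. By role they are the 6 subunits of the MCM helicase, 4 each of polymerase alpha-primase, polymerase delta and polymerase epsilon, 3 of the single-strand binding protein RPA, 6 of the sliding clamp and its loader, 7 genes of primer removal and ligation, and Ssbp1. The term is a curated one and leaves out most proteins that license and fire origins, which are described as separate lists. Of the 35 genes, 26 carry a further pathway term, most often nucleotide excision repair (18 genes), mismatch repair (15), base excision repair (11) and homologous recombination (8).

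RNA was sequenced from primary CD8 T cells of the spleen of C57BL/6 mice in 12 libraries, 3 in each of 4 groups. The groups are wild type (WT) at 0 h, Trmt61A-cKO at 0 h, WT at 48 h and Trmt61A-cKO at 48 h. Trmt61a encodes the catalytic part of the methyltransferase for the m1A mark of transfer RNA, and cKO stands for conditional knockout; the labels used here give neither the Cre driver nor the age of the mice, nor any treatment that separates 48 h from 0 h. They do not say that libraries of a group came from separate mice, so the p-values measure only how these libraries vary, which may in part be technical variation. Levels are in CPM, a gene's reads relative to all counted reads of its library, scaled by TMM factors. Changes are log2 fold changes from edgeR's quasi-likelihood test with their standard errors after ±; a gene was called higher or lower when its p, adjusted across all 12404 genes (Benjamini-Hochberg), fell below 0.05. Values after ± beside CPM are standard deviations over 3 libraries.

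As background, copying the genome starts where the origin recognition complex and its partners load the ring of MCM proteins onto DNA, and Cdc45 and the GINS complex turn the ring into an active helicase. Polymerase alpha-primase lays down short RNA-DNA primers, polymerase epsilon extends the leading strand and polymerase delta the lagging strand, both held on DNA by the PCNA clamp that the RFC complex loads. RPA covers exposed single strands, and RNase H enzymes, Fen1 and Dna2 remove primers before Lig1 seals the nicks. Naive CD8 T cells are resting cells outside the cell cycle, and after stimulation through the antigen receptor they enter it and divide rapidly. Many replication genes are known targets of the E2F transcription factors.

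Total counts ran from 34341847 to 40270659 per library, and the lowest count of any of the 35 genes in any library was 24, for Dna2. The knocked-out gene did not follow the labels in every library. Trmt61a stood at 27.4, 29.8 and 26.3 CPM in WT at 0 h, and at 42.0, 38.2 and 34.8 CPM at 48 h. Replicates 2 and 3 of cKO had 0.807 and 1.88 CPM at 0 h, and 0.956 and 1.10 CPM at 48 h. It was at 28.1 CPM (0 h) and 42.5 CPM (48 h) in the libraries labelled cKO replicate 1, or 101% and 111% of the WT mean, against 2.49% to 6.76% in cKO replicates 2 and 3. Comparisons that involve cKO are therefore given as labelled and also without both libraries labelled cKO replicate 1. WT replicate 3 was set apart by Y-linked genes, which were at or near 0 there and not in the other libraries. Leaving it out at both times kept the same 32 replication genes higher at 48 h in both genotypes. No replication gene was called between genotypes or in the interaction without it. The genotypes differ in this respect too, and its part in the genotype comparisons was not tested. All 7 markers of CD8 T cell identity were detected, with a summed level of 5043 to 5652 CPM at 0 h against 2153 to 2303 CPM at 48 h, and all 7 were lower at 48 h in both genotypes. Of all genes tested, 38.4% were called lower at 48 h in WT and 36.2% in cKO, and 36.9% and 36.4% higher. These shares stand beside this and the marker counts that follow. Markers of other spleen cells were present at low levels. Summed over 10 genes, B cell markers ranged from 98.6 to 216 CPM at 0 h and were between 20.2 and 32.6 CPM at 48 h, with 10 of 10 lower in WT. For 12 myeloid and dendritic cell genes the ranges were 22.6–43.1 and 3.12–7.44 CPM (8 of the 9 tested lower in WT), and for 10 erythroid genes 16.2–125 and 4.52–9.03 CPM (7 lower and 1, Epor, higher). Some of these sums did not overlap between the genotypes as labelled. At 0 h the B cell sums were 123 to 216 CPM in WT and 98.6 to 121 CPM in cKO, and those of 5 CD4 and regulatory T cell genes 44.2 to 60.5 and 32.6 to 37.8 CPM. At 48 h the myeloid and dendritic cell sums were 3.12 to 4.62 CPM in WT and 5.29 to 7.44 CPM in cKO. Of 7 NK and innate lymphoid genes, 6 were lower in WT and Eomes, which activated CD8 T cells also express, was higher. At 48 h in WT, Csf1r, Clec9a, Csf3r, S100a9, Elane, Alas2, Slc4a1, Ncr1, Klra8, Klra4 and Tyrobp had no count. At 48 h the CD4 and regulatory T cell sums were 57.1 to 87.9 CPM (2 genes higher and 1 lower in WT). The part of these shifts in the replication genes' values, between times or between genotypes, was not tested.

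Between 0 h and 48 h in WT, the replication machinery rose almost as a whole. Of the 35 genes, 32 were called higher, 1 was called lower, the small polymerase delta subunit Pold4, and 2, the small polymerase epsilon subunit Pole4 and the RNase H2 subunit Rnaseh2c, were not called (edgeR, adjusted p under 0.05). Among all 12404 genes tested, 36.9% were called higher and 38.4% lower. The median log2 fold change was 2.15 over the 35 genes and -0.02 over all genes. A rise of at least 2-fold was called for 27 of the 35 (77.1%), against 20.9% of all genes, and 18 rose at least 4-fold. The 35 genes together took 1679 to 1753 CPM in the 6 libraries at 0 h and 6001 to 6925 CPM in the 6 libraries at 48 h, a 3.97-fold rise of the mean in WT and 3.7-fold in cKO. The WT libraries of the 2 times did not overlap for 32 genes upwards and 1 downwards, beside 39% and 39.9% of all genes. In bulk samples, more cells that express a gene and more RNA of it per cell cannot be told apart.

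Libraries labelled cKO showed the same 32 genes higher at 48 h, with a median log2 fold change of 1.98, where 36.4% of all genes were called higher and 36.2% lower. Of these, 26 rose at least 2-fold, against 19% of all genes, and the libraries of the 2 times did not overlap for 32 genes upwards and 1 downwards, beside 37.3% and 37.5% of all genes. Pold4 was lower there too, and Rnaseh2c was called lower by a small step, at -0.29 ± 0.12 (edgeR adjusted p = 0.0441). That last call was lost under 12 of 22 other settings, such as DESeq2, where the adjusted p was 0.0594. Without both libraries labelled cKO replicate 1, the counts stayed at 32 higher and 2 lower, beside 33.6% and 32.8% of all genes.

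**Figure D1:**
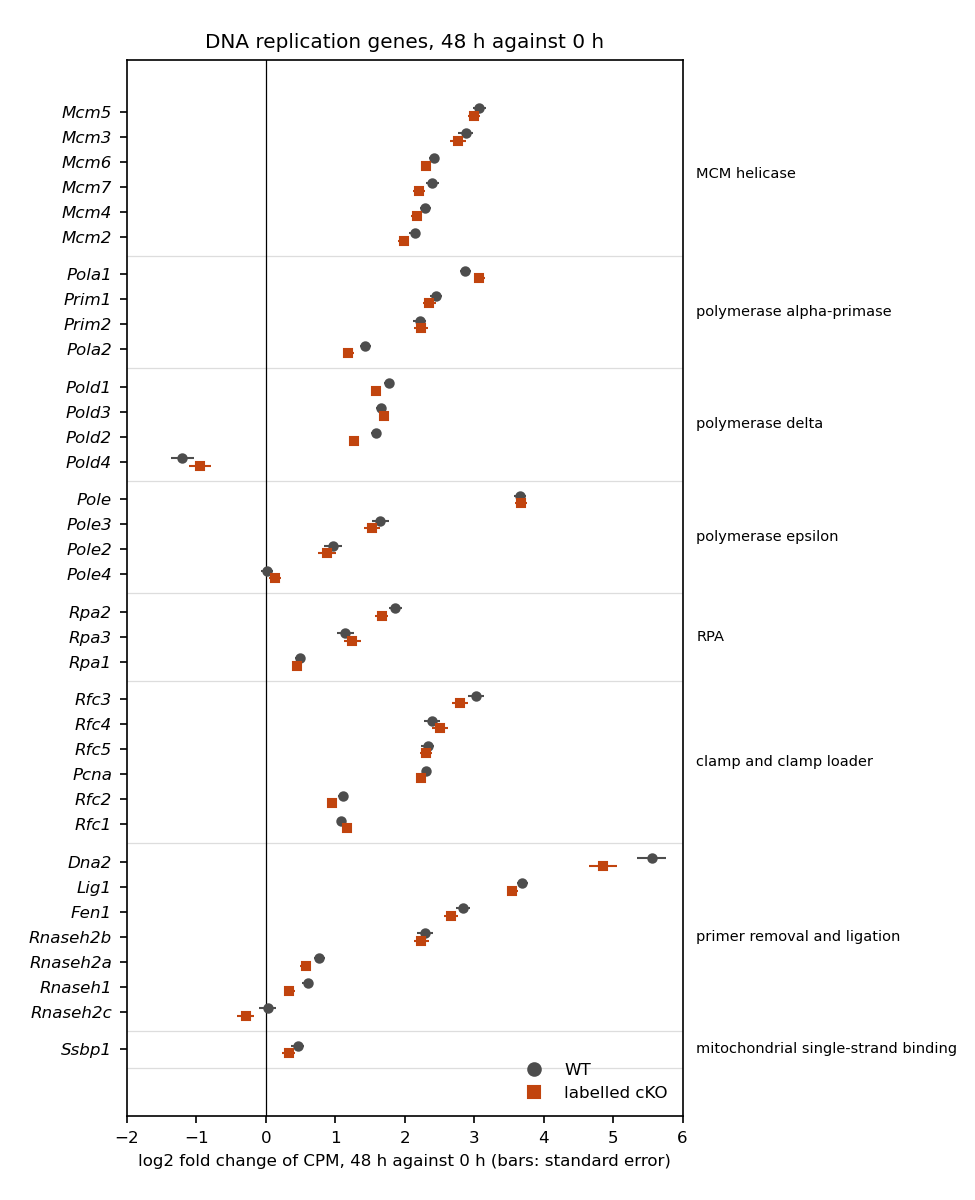
Log2 fold change from 0 h to 48 h (x axis) of each of the 35 DNA replication genes (y axis, grouped by role), in WT (grey circles) and in libraries labelled cKO (orange squares), with standard errors as bars. Dna2 lies farthest to the right at 5.56 in WT and 4.86 in cKO, Pold4 is the only gene clearly left of 0, and Pole4 and Rnaseh2c lie near 0.

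Promoter windows of 300 bases, 1 or more for each gene, from 250 before to 50 after the annotated start, were matched for 29 of the 35 genes in RefSeq on GRCm38.p6. The letters of the E2F site searched for were TTTGGCGC, TTTCCCGC, TTTGCCGC and TTTCGCGC on both strands; matches may overlap each other and other motifs. At least 1 window with a match was found for 11 of the 29 genes (37.9%), against 4.18% of the 12838 genes of the count table that have a window. Counted by window, 12 of the 35 windows of these genes hold a match (34.3%), against 2.26% of all 32851 windows. The 11 are Lig1, Mcm3, Mcm5, Mcm6, Mcm7, Pola1, Pold1, Pold3, Pole2, Pole4 and Rfc3. Of these, 10 rose in WT, with a median log2 fold change of 2.43 over the 11, and of the 18 genes without a match 16 rose, with a median of 1.62. By gene, the letters CCAAT were found for 55.2% of the 29, against 42.5% of genes of the table, GGGCGG for 69% against 62%, and TTTGAA or TTCGAA for 20.7% against 17.3%. A match describes the letters of the window and is neither a site nor a cause. Not matched were Mcm4, Pole, Prim2, Rfc2, Rnaseh1 and Rnaseh2b.

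The RefSeq windows shown here, on GRCm38.p6, are those of 4 genes that rose and hold a match (Mcm3, Mcm5, Mcm6 and Pola1), of the gene with the largest rise, which holds none (Dna2), and of the subunits that held level with a match (Pole4) or fell without one (Pold4). Each is printed 5′ to 3′ on the gene's strand in lower case with E2F letters, read on either strand, in capitals. The Mcm3 window lies at chr1:20820263-20820562 on the minus strand. That of Mcm5 is chr8:75109259-75109558, plus strand. The Mcm6 window lies at chr1:128359656-128359955 on the minus strand. That of Pola1 is chrX:93632106-93632405, minus strand. The Dna2 window lies at chr10:62946779-62947078 on the plus strand. That of Pole4 is chr6:82652825-82653124, minus strand. The Pold4 window lies at chr19:4231643-4231942 on the plus strand.
Mcm3: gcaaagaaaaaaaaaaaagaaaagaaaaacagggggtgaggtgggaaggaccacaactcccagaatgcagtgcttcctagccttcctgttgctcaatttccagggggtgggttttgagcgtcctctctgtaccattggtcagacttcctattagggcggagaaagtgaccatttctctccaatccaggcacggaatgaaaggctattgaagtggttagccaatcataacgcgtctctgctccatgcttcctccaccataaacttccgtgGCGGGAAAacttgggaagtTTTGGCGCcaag
Mcm5: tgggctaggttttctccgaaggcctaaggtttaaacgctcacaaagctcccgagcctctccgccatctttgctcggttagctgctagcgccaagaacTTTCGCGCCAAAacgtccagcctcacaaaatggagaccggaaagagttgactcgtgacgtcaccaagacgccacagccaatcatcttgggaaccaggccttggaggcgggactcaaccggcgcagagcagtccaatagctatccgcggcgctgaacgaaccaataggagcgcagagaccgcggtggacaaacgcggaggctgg
Mcm6: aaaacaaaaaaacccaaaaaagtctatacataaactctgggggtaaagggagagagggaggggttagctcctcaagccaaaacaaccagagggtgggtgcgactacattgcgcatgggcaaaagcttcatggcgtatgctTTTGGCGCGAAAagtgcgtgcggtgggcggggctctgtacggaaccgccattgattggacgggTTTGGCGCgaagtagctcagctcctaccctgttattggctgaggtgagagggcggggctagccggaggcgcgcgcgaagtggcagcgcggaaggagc
Pola1: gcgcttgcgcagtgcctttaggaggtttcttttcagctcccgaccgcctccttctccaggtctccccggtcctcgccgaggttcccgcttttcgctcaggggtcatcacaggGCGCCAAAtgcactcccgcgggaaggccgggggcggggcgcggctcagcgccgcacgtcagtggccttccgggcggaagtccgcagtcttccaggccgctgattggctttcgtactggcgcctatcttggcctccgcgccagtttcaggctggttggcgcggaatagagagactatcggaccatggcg
Dna2: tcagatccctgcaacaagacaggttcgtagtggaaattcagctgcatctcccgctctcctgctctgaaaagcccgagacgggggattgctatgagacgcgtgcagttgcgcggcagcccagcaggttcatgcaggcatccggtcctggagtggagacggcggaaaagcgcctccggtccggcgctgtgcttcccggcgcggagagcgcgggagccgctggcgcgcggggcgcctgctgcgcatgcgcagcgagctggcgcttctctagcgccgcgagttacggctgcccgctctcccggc
Pole4: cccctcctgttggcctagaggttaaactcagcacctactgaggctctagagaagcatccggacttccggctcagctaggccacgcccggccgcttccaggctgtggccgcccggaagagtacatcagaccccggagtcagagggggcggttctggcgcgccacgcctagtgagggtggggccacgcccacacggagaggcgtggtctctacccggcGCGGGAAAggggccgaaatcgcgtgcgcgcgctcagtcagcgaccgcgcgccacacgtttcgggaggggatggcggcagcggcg
Pold4: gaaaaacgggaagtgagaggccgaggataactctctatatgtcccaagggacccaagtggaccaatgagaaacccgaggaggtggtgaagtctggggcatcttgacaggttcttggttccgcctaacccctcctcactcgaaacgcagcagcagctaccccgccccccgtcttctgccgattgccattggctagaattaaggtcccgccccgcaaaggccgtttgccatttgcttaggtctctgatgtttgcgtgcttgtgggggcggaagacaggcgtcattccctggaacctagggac

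Each window is read from its first base, which lies 250 bases before the start of the transcript. Mcm6 holds 3 matches, between 110 and 47 bases before the start. Mcm5 holds 2 that overlap, at 153 and 149 bases before the start. In Mcm3 both matches lie after the start, at 19 and 38 bases, and Pola1 and Pole4 hold 1 each, at 138 and 34 bases before it. Pole4 therefore shares the E2F letters with the genes that rose, and Dna2, which rose most, lacks them in this window.

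The 6 MCM genes, which encode the ring that unwinds DNA ahead of the polymerases, rose together. Their log2 fold changes in WT ran from 2.15 ± 0.08 for Mcm2 to 3.08 ± 0.092 for Mcm5, and all 6 rose at least 4-fold. Mcm5 stood at 66.6, 72.3 and 65.7 CPM in the WT libraries at 0 h and at 612, 556 and 556 CPM at 48 h (edgeR adjusted p = 9.17e-13). In cKO replicates 1, 2 and 3 it stood at 63.6, 67.7 and 73.2 CPM at 0 h, and at 608, 486 and 540.4 CPM at 48 h. Every 48 h library thus lay far above every 0 h library, with the lowest 48 h value in cKO replicate 2. Mcm3 rose by 2.88 ± 0.11, Mcm6 by 2.43 ± 0.072, Mcm7 by 2.40 ± 0.092 and Mcm4 by 2.30 ± 0.079. The ring holds 1 copy of each subunit, and the transcripts were close to each other per length: at 0 h the highest, Mcm6, had 39.2 ± 2.29 CPM per kb of transcript and the lowest, Mcm5, 20.2 ± 1.05, a ratio of 1.94. At 48 h the extremes were Mcm6 at 210.5 ± 6.79 and Mcm2 at 115 ± 6.08 CPM per kb, a ratio of 1.84. Neighbours in that order, Mcm6 and Mcm3 at 207 ± 4.32, did not differ beyond their spread. With the length of all exons in place of the main transcript, the ratios were 2.09 and 3.02 and the order changed, Mcm4 being highest at 0 h and Mcm3 at 48 h.

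Polymerase alpha-primase makes the primer that starts every new strand. Pola1, its catalytic polymerase subunit, stood at 13.9, 16.2 and 14.5 CPM in WT at 0 h against 105, 112 and 110.0 CPM at 48 h, a change of 2.87 ± 0.08 on the log2 scale (edgeR adjusted p = 4.74e-13). The cKO libraries had 13.8, 14.7 and 13.4 CPM at 0 h, then 111, 119 and 123 CPM at 48 h. The times did not overlap, and the 48 h values of cKO replicates 2 and 3 lay above all WT values. Prim1, the primase catalytic subunit, rose by 2.45 ± 0.092 and its partner Prim2 by 2.22 ± 0.095. The accessory subunit Pola2 rose least, by 1.44 ± 0.081, from 48.2 ± 1.44 to 130.2 ± 5.93 CPM. At 0 h Pola2 was the highest of the 4 per length, at 19.9 ± 0.593 CPM per kb of transcript, and Pola1 the lowest, at 2.79 ± 0.221. Their ratio of 7.14 at 0 h became 2.79 between the highest, Prim1, and the lowest, Pola1, at 48 h. With the length of all exons the ratios were 3.44 and 2.29, and Prim2 was the lowest at 48 h, so the size of this narrowing depends on the length used.

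Polymerase delta, which completes the lagging strand, had 3 subunits that rose and 1 that fell. Pold1, the catalytic subunit, stood at 59.8, 62.4 and 60.6 CPM in WT at 0 h against 213, 208 and 204 CPM at 48 h, a change of 1.77 ± 0.073 on the log2 scale (edgeR adjusted p = 1.99e-11). Its cKO values were 68.3, 66.1 and 60.5 CPM at 0 h, then 205, 179 and 201 CPM at 48 h, so that no 48 h library overlapped one at 0 h. The accessory subunits Pold3 and Pold2 rose by 1.66 ± 0.075 and 1.59 ± 0.073.

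Pold4 encodes the smallest subunit of polymerase delta; in human cells its protein is known to be degraded in S phase and after DNA damage, which leaves an enzyme of fewer subunits. It stood at 41.8, 37.4 and 35.9 CPM in WT at 0 h against 14.9, 19 and 16 CPM at 48 h, a change of -1.20 ± 0.17 on the log2 scale (edgeR adjusted p = 1.02e-05). In the cKO libraries it stood at 40.5, 40.6 and 42.7 CPM at 0 h, and at 14.8, 23 and 26.5 CPM at 48 h, where the log2 fold change was -0.95 ± 0.16 (edgeR adjusted p = 0.00011). All 48 h libraries lay below all 0 h libraries, and cKO replicates 2 and 3 were the highest of the 48 h libraries. The CPM ratio of Pold4 to Pold1 went from 0.63 ± 0.0599 to 0.08 ± 0.0108 in WT. Per length it was the highest of the 4 subunits at 0 h, at 42 ± 3.37 CPM per kb of transcript, and the lowest at 48 h, at 18.2 ± 2.33. The same held with the length of all exons. Exons of another gene model on the same strand cover 24.6% of those of Pold4 in GENCODE on GRCm38. What this does to its counts, made on GRCm39, was not tested.

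Polymerase epsilon, the leading strand enzyme, had the widest range of transcript level per length of the 5 complexes at 0 h. Pole, its catalytic subunit, stood at 15.3, 14.7 and 14.9 CPM in WT at 0 h against 199, 199 and 169 CPM at 48 h, a change of 3.66 ± 0.085 on the log2 scale (edgeR adjusted p = 1.01e-13). The cKO libraries had 17.9, 16.3 and 16 CPM at 0 h, then 209.6, 218 and 213 CPM at 48 h. The times were far apart. At each time all 3 cKO libraries lay above the 3 WT libraries, as in 7.32% of all genes at 0 h and 13.2% at 48 h. Neither difference between genotypes was called (edgeR adjusted p = 0.539 at 0 h and 0.187 at 48 h). Pole3, a histone-fold subunit, rose by 1.65 ± 0.12, and Pole2, whose yeast counterpart takes part in helicase assembly, by 0.97 ± 0.13.

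Pole4, the histone-fold partner of Pole3, did not change detectably. It stood at 73.2, 70.5 and 80.9 CPM in WT at 0 h against 79.7, 69.2 and 78.1 CPM at 48 h. In cKO it had 69.8, 67.5 and 76 CPM at 0 h, then 72.2, 82.4 and 79.1 CPM at 48 h. The groups overlapped, and the log2 fold change in WT was 0.02 ± 0.083 (edgeR adjusted p = 0.871). Per length Pole4 was the highest subunit at both times, at 42.3 ± 3.03 and 42.8 ± 3.2 CPM per kb of transcript. Pole was the lowest at 0 h, at 2.09 ± 0.0453 CPM per kb, and reached 26.4 ± 2.42 at 48 h. The ratio of the highest to the lowest subunit went from 20.3 to 1.94 in WT (from 22.3 to 2.31 with the length of all exons), and from 17.2 to 2.01 in cKO. The subunits were thus far closer in transcript level at 48 h than at 0 h in both genotypes. In polymerase delta the same ratio was 3.62 at 0 h and 4.08 at 48 h in WT, and 4.15 and 2.96 in cKO.

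**Figure D2:**
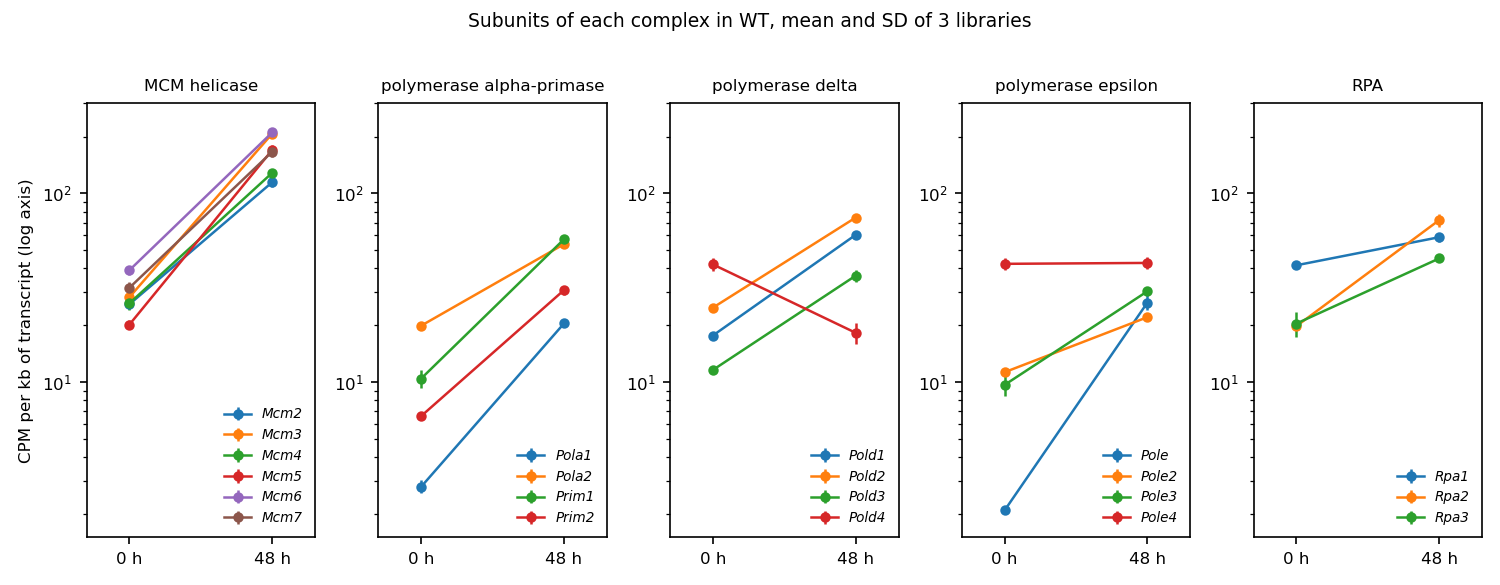
CPM per kb of transcript (y axis, log scale) of the subunits of 5 complexes in WT at 0 h and 48 h (x axis), as means of 3 libraries with standard deviations as bars. The polymerase epsilon lines converge from a 20.3-fold to a 1.94-fold range as Pole rises and Pole4 holds its level, the Pold4 line crosses the other polymerase delta lines downwards, and the MCM lines rise side by side.

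RPA, the complex that coats single-stranded DNA, rose unevenly. Rpa2 stood at 35.2, 37.2 and 35.2 CPM in WT at 0 h against 124, 126 and 142 CPM at 48 h. In cKO it had 33.4, 38.2 and 41.4 CPM at 0 h, then 131, 113 and 117 CPM at 48 h. The times did not overlap, and the log2 fold change in WT was 1.87 ± 0.092 (edgeR adjusted p = 1.29e-10). Rpa3, the small subunit, rose by 1.15 ± 0.12, and Rpa1, the large DNA-binding subunit, by 0.49 ± 0.077, from 211 ± 8.92 to 297 ± 15.3 CPM. The CPM ratio of Rpa1 to Rpa2 went from 5.89 ± 0.328 to 2.28 ± 0.18 in WT.

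PCNA is the ring that holds polymerases on DNA, and RFC is the loader that opens it. Pcna went from 133 ± 7.17 to 657 ± 21.5 CPM in WT, a log2 fold change of 2.31 ± 0.064. Per length it was the highest of the 35 genes in WT at both times, at 87.5 ± 4.72 and 433 ± 14.1 CPM per kb of transcript. Rfc3 rose most among the loader subunits: its WT libraries stood at 8.47, 6.94 and 6.4 CPM at 0 h, and at 60.7, 59.3 and 58.1 CPM at 48 h (log2 fold change 3.03 ± 0.12, edgeR adjusted p = 1.12e-11). The cKO libraries had 9.36, 7.15 and 8.45 CPM at 0 h, then 60.3, 55.5 and 57.5 CPM at 48 h, with no overlap between the times. Rfc4 and Rfc5 rose by 2.40 ± 0.12 and 2.33 ± 0.088. Rfc2 and Rfc1, the loader subunits highest per length at 0 h, rose least. Rfc2 was up by 1.11 ± 0.062 and the large subunit Rfc1, which is particular to this loader, by 1.08 ± 0.061. The 0 h level is itself the base of the fold change, so level and rise are not independent. The CPM ratio of Rfc1 to Rfc3 went from 12.1 ± 1.71 to 3.09 ± 0.127 in WT.

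Among genes of primer removal and ligation, Dna2 showed the largest change of all 35. Dna2 encodes a nuclease and helicase that trims long flaps. Its WT libraries stood at 1.26, 0.677 and 1.04 CPM at 0 h, and at 50.9, 46.6 and 43.3 CPM at 48 h, a log2 fold change of 5.56 ± 0.21 or 47.2-fold (edgeR adjusted p = 8.08e-12). In cKO it stood at 1.11, 1.61 and 1.49 CPM at 0 h, and at 49.8, 37.3 and 35.7 CPM at 48 h, a log2 fold change of 4.86 ± 0.2. It was barely detected in any 0 h library and clearly present in every 48 h library. Lig1, the ligase that joins lagging strand fragments, went from 23.8 ± 1.15 to 309 ± 2.94 CPM in WT, a log2 fold change of 3.70 ± 0.083. Fen1, the main flap nuclease, rose by 2.84 ± 0.1, although an antisense gene model overlaps 78.8% of its exons and no strand setting is stated.

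RNase H2 removes ribonucleotides with 3 different subunits, and these did not move together. Rnaseh2b rose by 2.29 ± 0.11 in WT, the catalytic subunit Rnaseh2a by 0.77 ± 0.082, and Rnaseh2c changed by 0.03 ± 0.12 (edgeR adjusted p = 0.842). Rnaseh2c stood at 38.7, 50.1 and 39.1 CPM in WT at 0 h against 46.3, 39.4 and 44.8 CPM at 48 h. In cKO it had 43.9, 46.3 and 48.2 CPM at 0 h, then 43.9, 32.2 and 37.2 CPM at 48 h. Its groups overlapped, with the lowest values in cKO replicates 2 and 3 at 48 h. The CPM ratio of Rnaseh2b to Rnaseh2c went from 0.284 ± 0.0609 to 1.34 ± 0.0947 in WT. Exons of Kat5 on the opposite strand overlap 24.8% of those of Rnaseh2c. Rnaseh1, which encodes the other RNase H, with known roles in mitochondria as well as the nucleus, rose by 0.61 ± 0.079.

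Ssbp1, the single-strand binding protein of mitochondria, rose least of the called genes. It stood at 35, 36.2 and 35.5 CPM in WT at 0 h against 46.5, 44.6 and 55.5 CPM at 48 h. In cKO it had 33.5, 35.7 and 40.1 CPM at 0 h, then 47.1, 45.2 and 45.5 CPM at 48 h. The times did not overlap within either genotype, and the log2 fold change was 0.46 ± 0.092 in WT (edgeR adjusted p = 0.000358) and 0.33 ± 0.092 in cKO (edgeR adjusted p = 0.00452).

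**Figure D3:**
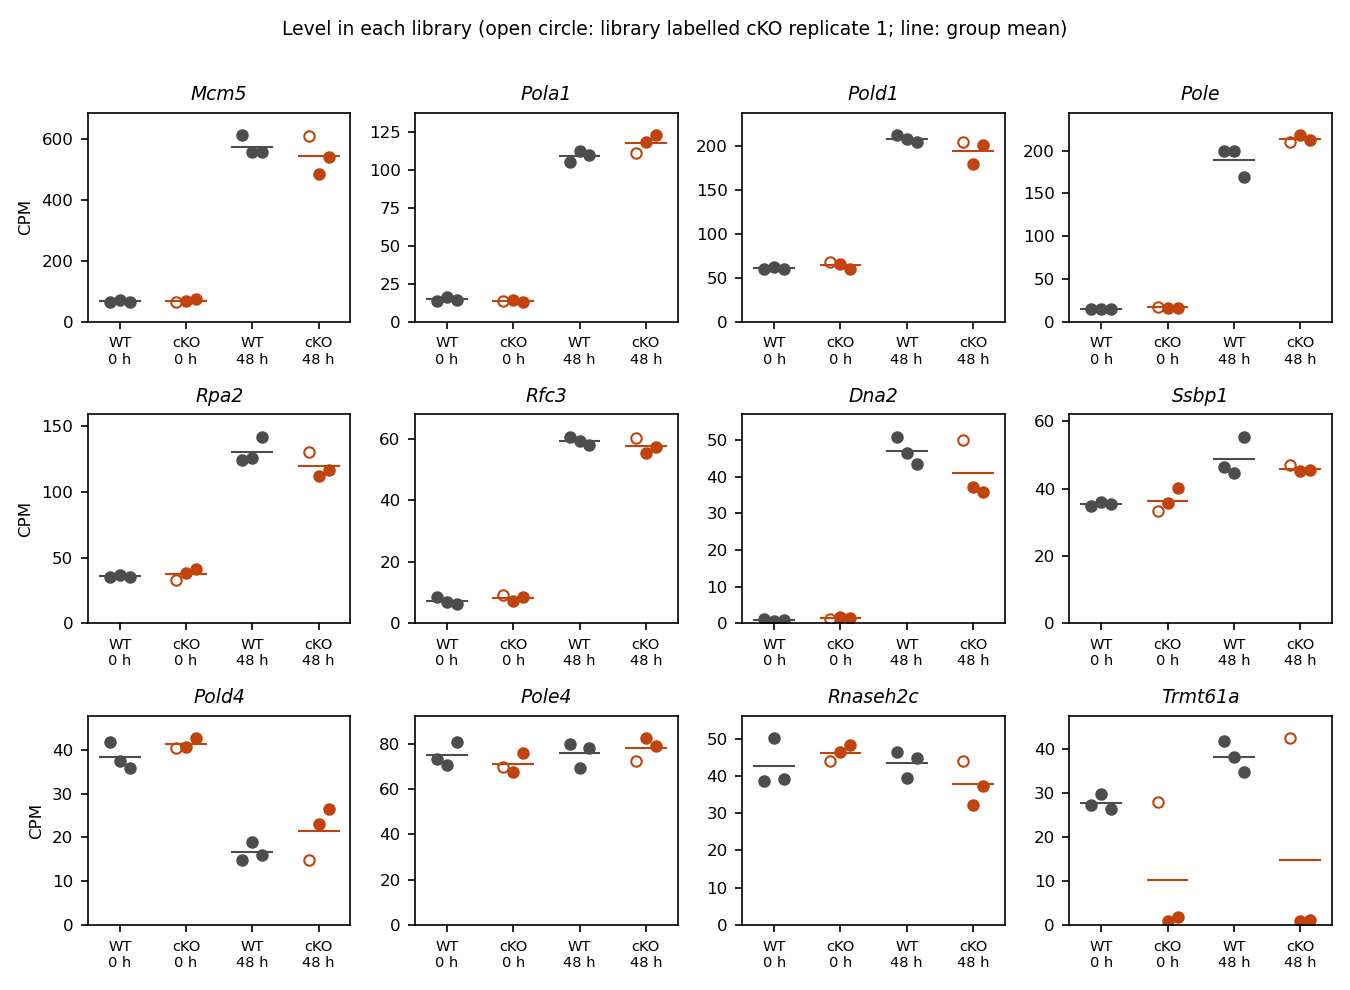
CPM (y axis, from 0) in each of the 12 libraries for 11 replication genes and Trmt61a, by group (x axis), with WT in grey, cKO in orange, the libraries labelled cKO replicate 1 as open circles and group means as lines. The first 8 genes are higher in all 48 h libraries than in all 0 h libraries, Pold4 is lower, Pole4 and Rnaseh2c overlap, and the open circles of Trmt61a lie at the WT level.

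Library-to-library spread was small beside these changes. The median coefficient of variation over the 35 genes was 5.39% in WT at 0 h, 6.21% in cKO at 0 h, 5.07% in WT at 48 h and 6.98% in cKO at 48 h. The largest was 29.5% for Dna2 in WT at 0 h, where it rests on few reads, and the next largest that of Pold4 in cKO at 48 h, at 28.2%. Counts of several genes could hold reads of near copies: a transcript 99.2% identical to part of Pcna belongs to Pcna-ps2, and Gm5487, Gm12115 and Gm12870 are 97.7%, 97.8% and 96.2% identical to parts of Mcm7, Ssbp1 and Rfc5. The part of Mcm7 matched by Gm5487 spans 2157 of the 2962 bases of the transcript. Opposite-strand exons of Lat2, Eif4a2 and Wsb2 overlap 15.1%, 12.7% and 10.7% of those of Rfc2, Rfc4 and Rfc5. Same-strand gene models overlap 9.66% of the exons of Rnaseh2a and 8.5% of those of Pole2.

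The proteins that act around the machinery at the fork showed what the term leaves out. Of 10 genes of origin recognition and licensing, 8 rose in WT and none fell, with a median log2 fold change of 1.28. Of all genes, 36.9% were called higher and 38.4% lower in WT. Cdc6, which loads the MCM ring, rose by 7.16 ± 0.15, from 0.876 ± 0.169 to 126 ± 7.16 CPM, Orc1, an origin recognition subunit, by 7.51 ± 0.25, and Gmnn, the licensing inhibitor geminin, by 3.85 ± 0.14. Of 13 genes of helicase activation and origin firing, 12 rose and none fell (median 2.17), with Mcm10 up by 7.69 ± 0.21, Cdc45 by 5.09 ± 0.15 and Recql4 by 4.17 ± 0.13. Cdc6, Orc1 and Mcm10 thus had larger fold changes than any of the 35 genes, Dna2 included, from starts near 0, with Mcm10 at 0.657 ± 0.136 CPM at 0 h.

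In the list of fork protection and the S phase checkpoint, 11 of 13 rose and 1, Rad9a, fell (median 0.68), beside 36.9% and 38.4% of all genes. Chek1, the checkpoint kinase, rose by 5.56 ± 0.17, Clspn, its adaptor, by 5.65 ± 0.22, and Tipin by 2.69 ± 0.092. All 7 tested genes of other clamp loaders and clamp regulators rose (median 2.53), among them Pclaf, a PCNA-binding factor, by 6.87 ± 0.16, Atad5, which unloads PCNA, by 3.09 ± 0.13, and Chtf18 by 2.53 ± 0.12. All 12 genes of replication-coupled chromatin assembly rose (median 2.05), with Chaf1a, the large subunit of the histone chaperone CAF-1, up by 5.38 ± 0.13, Nasp by 2.34 ± 0.082 and Mms22l by 2.35 ± 0.081. Of 8 topoisomerases and cohesion genes, 7 rose and Top2b fell (median 0.57); Esco2 rose by 6.48 ± 0.23, Top2a by 5.82 ± 0.14 and Top1 by 1.00 ± 0.092.

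Neither MCM paralogues with translesion polymerases nor mitochondrial replication genes moved one way. In the first list 5 of 13 rose and 6 fell (median -0.18), beside 36.9% of all genes higher and 38.4% lower in WT. The number that fell ran from 4 to 7 over the other settings. Mcm8 was up by 2.99 ± 0.22, Polq by 2.78 ± 0.14 and Polh by 1.69 ± 0.14. Among those that fell, Poli ran from -1.63 to -1.421 and Polm from -1.091 to -0.8671 over those settings. In the second, 6 of 10 rose and 4 fell (median 0.29); Mgme1 rose by 1.40 ± 0.13 and Top1mt by 0.95 ± 0.1, and Polg, the mitochondrial polymerase, fell by 0.58 ± 0.063 on the log2 scale. For annotation terms that share members with DNA replication, the genes outside the 35 had lower medians: 0.66 for cell cycle (76 of 110 rose and 16 fell), 0.93 for homologous recombination (22 of 31 and 6), 0.45 for nucleotide excision repair (14 of 25 and 7), 0.33 for base excision repair (11 of 22 and 3) and 0.21 for mismatch repair (3 of 7 and 2). Those counts too stand beside the 36.9% and 38.4% of all genes in WT. In cKO, where 36.4% of all genes were called higher and 36.2% lower, every tested gene rose in 4 lists. These were licensing (10), helicase activation (13), other clamp factors (7) and chromatin assembly (12). The other lists held falls there too: 11 of 13 fork protection genes rose and 1 fell, 7 of 8 topoisomerases and cohesion genes rose and 1 fell, 5 of 13 MCM paralogues and translesion genes rose and 4 fell, and 5 of 10 mitochondrial genes rose and 4 fell.

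**Figure D4:**
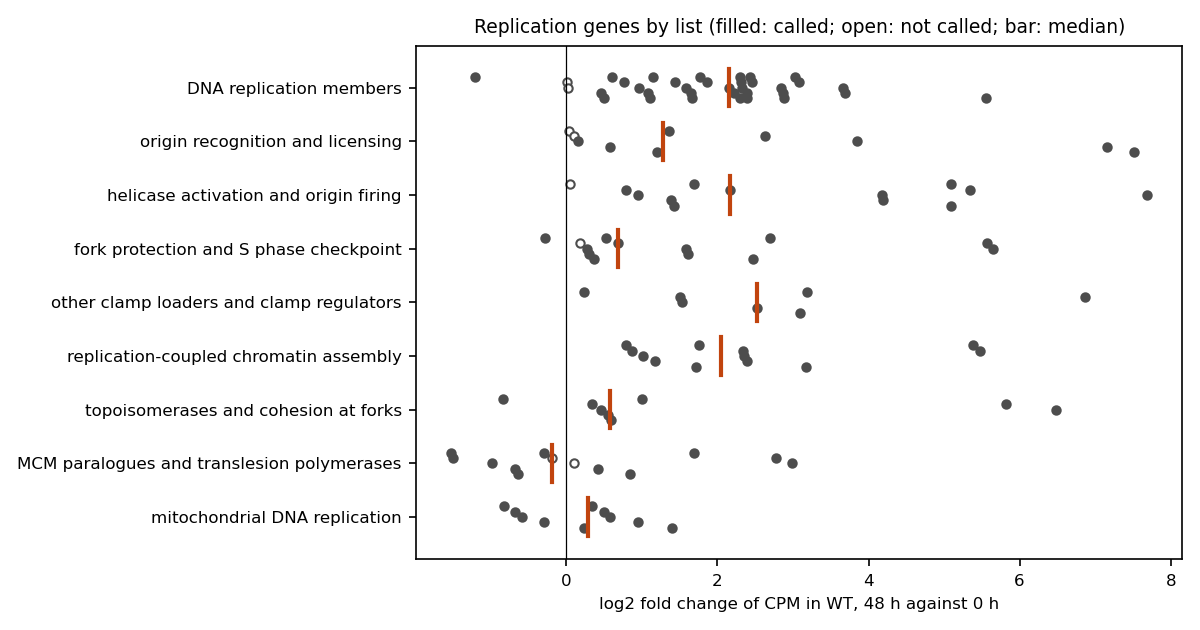
Log2 fold change from 0 h to 48 h in WT (x axis) of the 35 DNA replication genes and of the genes of 8 further lists (y axis); filled points passed the test, open points did not, and orange bars are medians. The medians of helicase activation (2.17), other clamp loaders (2.53) and chromatin assembly (2.05) lie near that of the 35 genes (2.15), and those of MCM paralogues with translesion polymerases (-0.18) and mitochondrial replication (0.29) near 0.

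At 0 h no replication gene passed the test between the genotypes. None of the 35 genes was called in cKO against WT as labelled by edgeR, DESeq2 or limma-voom. Of all genes, 0.00806% were called higher and 0% lower by edgeR. The log2 differences ran from -0.14 ± 0.12 for Rpa3 to 0.50 ± 0.24 for Dna2, the latter between 0.992 ± 0.293 and 1.41 ± 0.265 CPM (edgeR adjusted p = 0.533). The median was 0.03. Groups that did not overlap were found for 2 genes higher and 2 lower in cKO, beside 7.32% and 7.35% of all genes. Without the library labelled cKO replicate 1 none of the 35 was called either (0.0949% of all genes higher and 0.0554% lower).

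At 48 h as labelled, no replication gene was called between the genotypes by edgeR, DESeq2 or limma-voom. Of all genes, 3.1% were called higher and 1.09% lower in cKO. The differences leaned to lower values: 29 of the 35 were negative, among them all 6 MCM genes and all 7 genes of primer removal and ligation, beside 49.1% of all genes. They were small, with a median of -0.09 on the log2 scale, from -0.22 ± 0.095 for Fen1 to 0.36 ± 0.17 for Pold4. The groups did not overlap for 1 gene higher, Pole, and 3 lower, Pold2, Rfc2 and Rnaseh1, named here after their values were seen, beside 13.2% and 11% of all genes.

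The low values were mostly those of cKO replicates 2 and 3, the libraries in which Trmt61a was low. Replicate 2 lay below all 3 WT libraries in 25 of the 35 genes and replicate 3 in 22, against 35.3% and 34% of all genes, while the library labelled cKO replicate 1 did so in 8, against 26.6% of all genes. For the MCM genes, replicate 2 had 77.5% to 87.0% of the WT mean, replicate 3 had 82.3% to 94.0% and the library labelled cKO replicate 1 had 97.5% to 106%. The choice to leave out that library at both times was made with these results known. Without it, 3 genes were called lower and 1 higher at 48 h, beside 8.78% and 8.96% of all genes, and 28 of the 35 differences were negative, beside 49.2%. Groups did not overlap for 21 of the 35 in the direction of lower cKO and for 3 in that of higher, beside 26.5% and 26% of all genes, and all 6 MCM genes were among the 21. The share called lower (8.57%) was near that of all genes and the share called higher (2.86%) was below it, while the share of lower, non-overlapping genes was above it.

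Fen1 was lower, at 192, 169 and 191 CPM in WT, against 185, 139 and 148 CPM in cKO replicates 1, 2 and 3, with a 48 h log2 difference of -0.36 ± 0.077 without the library labelled cKO replicate 1 (edgeR adjusted p = 0.00783) and -0.22 ± 0.095 with it (edgeR adjusted p = 0.183). Replicates 2 and 3 had 75.6% and 80.5% of the WT mean. Mcm7 stood at 521, 463 and 496 CPM in WT, against 480.5, 382 and 406 CPM in cKO, a difference of -0.32 ± 0.077 without that library (edgeR adjusted p = 0.0128) and -0.22 ± 0.087 with it (edgeR adjusted p = 0.153). Pole3 stood at 54.6, 57.2 and 52.2 CPM in WT, against 57.1, 43.7 and 43.8 CPM in cKO, with -0.32 ± 0.1 (edgeR adjusted p = 0.0448) and -0.18 ± 0.12 (edgeR adjusted p = 0.384). In these 3 genes replicates 2 and 3 lay below every WT library and the library labelled cKO replicate 1 among the WT libraries. The antisense overlap of Fen1 and the near copy of Mcm7 given above apply to these counts too.

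Pold4 went the other way. Its 48 h values, 14.9, 19 and 16 CPM in WT, against 14.8, 23 and 26.5 CPM in cKO, gave a log2 difference of 0.57 ± 0.12 without the library labelled cKO replicate 1 (edgeR adjusted p = 0.00613) and 0.36 ± 0.17 with it (edgeR adjusted p = 0.213). Replicates 2 and 3 had 138% and 159% of the WT mean and the library labelled cKO replicate 1 had 88.6%. Without that library Pold4, which fell over time, was the only replication gene called higher in cKO at 48 h. As labelled, none was called. Eomes, a transcription factor of NK cells and activated CD8 T cells, also parted these libraries at 48 h, at 109.7, 113 and 118 CPM in WT and at 112, 64.3 and 75.9 CPM in cKO replicates 1, 2 and 3; the part of this in the replication genes' values was not tested.

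**Figure D5:**
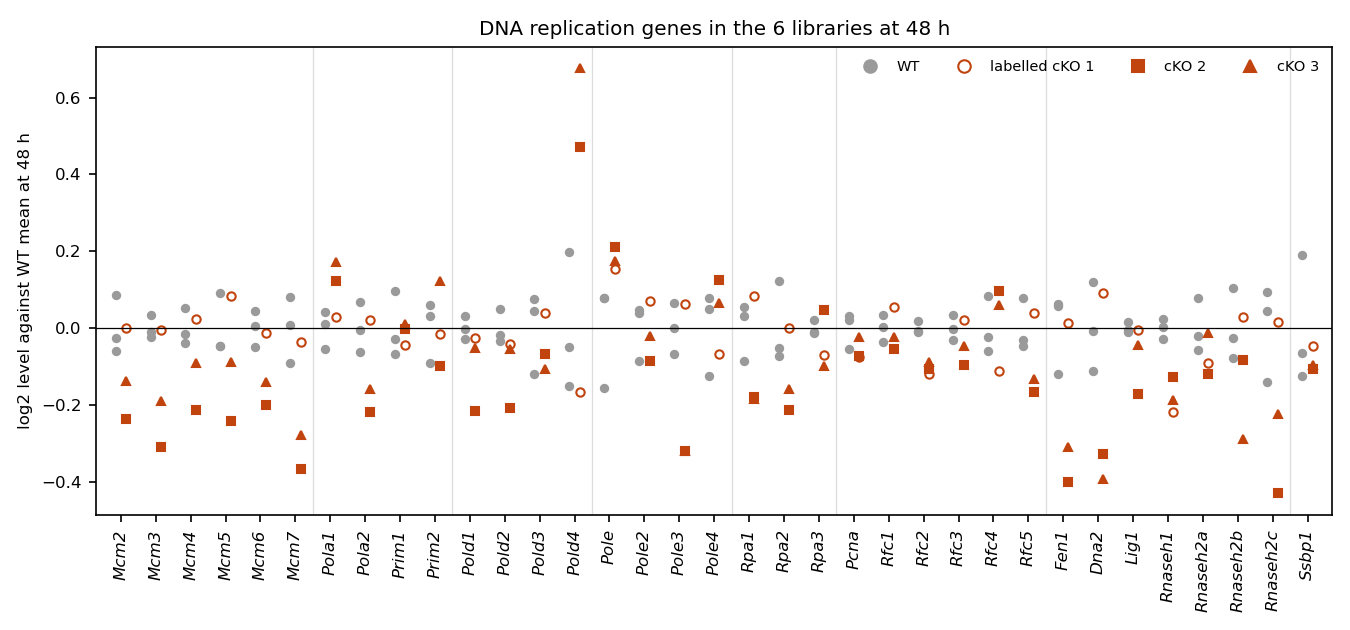
Log2 level of each of the 35 genes in the 6 libraries at 48 h relative to the WT mean (y axis), with WT libraries in grey, the library labelled cKO replicate 1 as open circles, and cKO replicates 2 and 3 as filled squares and triangles. Filled symbols lie below the grey points for all 6 MCM genes, Fen1 and Dna2 and above them for Pold4, and open circles of the MCM genes lie near 0.

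The rise over 48 h was tested against genotype with the interaction, the cKO change minus the WT change; it shares its libraries with the comparisons above. As labelled, none of the 35 genes was called by edgeR, DESeq2 or limma-voom, beside 0.105% of all genes higher and 0.00806% lower in edgeR. The estimate was negative for 26 of the 35, beside 48.3% of all genes, with a median of -0.11. Without both libraries labelled cKO replicate 1, Dna2 was called lower, at -1.01 ± 0.26 (edgeR adjusted p = 0.0349), beside 3.34% of all genes lower and 3.53% higher. Dna2 had 1.11, 1.61 and 1.49 CPM in cKO at 0 h against 1.26, 0.677 and 1.04 in WT, and 49.8, 37.3 and 35.7 CPM in cKO at 48 h, so that its 0 h values rest on few reads. As labelled its interaction was -0.70 ± 0.29 (edgeR adjusted p = 0.238).

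In the lists around the machinery, the 48 h difference between genotypes was called as labelled for 1 gene, the translesion polymerase Rev3l, at 0.48 ± 0.12 (edgeR adjusted p = 0.0464), a call that was lost under 10 of 22 other settings. Without both libraries labelled cKO replicate 1, where 8.78% of all genes were called lower and 8.96% higher, 3 of 10 licensing genes were lower, Orc1 (-0.45 ± 0.14), Cdc6 (-0.32 ± 0.09) and Cdt1 (-0.27 ± 0.069). Pclaf was lower among other clamp factors, at -0.44 ± 0.1 (edgeR adjusted p = 0.0114), and 3 of 12 chromatin assembly genes were lower, Nasp (-0.34 ± 0.066), Chaf1a (-0.34 ± 0.093) and Supt16 (-0.27 ± 0.087). Of the 13 genes of helicase activation, 1 was higher, Mtbp at 0.40 ± 0.09, and none lower, and of the 13 fork protection genes 1 was higher, Rif1 at 0.25 ± 0.072, and none lower. Of 14 MCM paralogues and translesion genes, 4 were higher, Rev3l at 0.61 ± 0.1, Poli, Primpol and Mcm9, and Rev1 was lower. Pclaf stood at 304 ± 19.2 CPM in WT at 48 h and at 286, 229.8 and 219 CPM in cKO replicates 1, 2 and 3, again with replicates 2 and 3 the lowest.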

How the data were processed

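Per the labels' protocols, TRIzol was used to extract total RNA and a NEBNext Ultra kit to build libraries. The submitters' processing notes name fastp 0.20.1, FastQC 0.11.9, HISAT2 2.1.0, SAMtools 1.9, HTSeq 0.11.2 and the build GRCm39, without settings or a strand mode. Raw counts of reads for each gene were deposited by the authors, and the pathway annotation beside them chose the 35 genes.

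Counts were fitted with edgeR 4.0.16 in R 4.3.3. filterByExpr (minimum count 10, minimum total 15) kept 12404 genes and left out 3948. TMM factors were between 0.956 and 1.07. The quasi-likelihood model had 1 coefficient per group over all 12 libraries, which left 8 residual degrees of freedom. The code was run on simulated counts with the same spread for every gene. They held no cKO library with Trmt61a at the WT level and no shared mice, so they do not bear on the genotype calls. A standard error is the size of a log2 fold change over the root of its F. Tests were two-sided.

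Values in every library are given for the gene of each role with the largest change in WT, for genes that did not rise and for genes called between genotypes; from each list, the 3 genes with the smallest adjusted p and those called between genotypes are named. The genes, lists, tests and the doubted libraries were chosen with earlier results of these data known. CPM per kb used GENCODE transcript lengths on GRCm38, matched by symbol, and promoters used RefSeq on GRCm38.p6, matched by NCBI gene number. No genome of the counts' build was used here. Alternatives were RLE and upper-quartile scaling, no filter, a 1 CPM filter, DESeq2 1.42.0, limma-voom (limma 3.58.1), a fit of the 2 groups compared, a replicate block, and fits without each library, without WT replicate 3 and without cKO replicate 1 at both times. Tested genes had a median count of 955; errors cover counting and the spread between libraries only.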

Additional observations from a re-analysis of the deposited data

How the results depend on the processing

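Over 22 other settings, the 48 h comparison with 0 h gave 32 genes higher and 1 lower in WT and 32 higher in cKO under each. The number lower in cKO was 1 in place of 2 under RLE scaling, DESeq2, the replicate block and without WT replicate 3 at both times, and ran from 1 to 2 when each library was left out in turn; Rnaseh2c is the gene that drops out, at an adjusted p of 0.0537 to 0.0638 under the former settings. The cause was not tested. Between genotypes at 48 h, the fit without cKO replicate 1 at both times gave 1 gene higher and 3 lower in place of 0 and 0, and leaving out each library gave 0 to 1 higher and 0 to 2 lower. The interaction gave 1 gene lower in place of 0 without cKO replicate 1 at both times.

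Upper-quartile scaling moved the median of all genes by -0.104 in WT and -0.0926 in cKO over time, and turned Pole4 to -0.089 and Rnaseh2c to -0.07534 in WT. Pole4 ran from -0.02484 to 0.08908 and Rnaseh2c from -0.03589 to 0.1602 in WT when each library was left out in turn, and Rnaseh2c was -0.03785 without WT replicate 3 at both times. The 48 h difference of Mcm5 between genotypes was 0.00623 without cKO replicate 2 at 48 h; none of these 3 was called. Leaving out each library in turn gave Mcm5 values from -0.1598 to 0.00623.

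Replicate numbers were not taken as pairs. Deviations of libraries with the same number correlated at 0.0708 to 0.151 between times in WT and 0.0338 to 0.0628 in cKO. Those with other numbers correlated at -0.0952 to -0.00139 and -0.046 to -0.00533, so that every library correlated best with its own number across times. The count columns also carry the same codes at both times, and Trmt61a was at the WT level in cKO replicate 1 at both. Equal numbers may therefore mark the same mouse, which the labels do not state. The main tests over time and of the interaction did not use this pairing. With the replicate block, which pairs equal numbers over time, 32 genes were higher and 1 lower in each genotype. None of the genes was called in the interaction under that block. For cKO against WT, the block instead matched equal numbers across genotypes, which the labels do not link. Depth limits Dna2 at 0 h.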
